A study of Mus musculus with 10 samples.

Results

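The genes described here encode the machinery of oxidative phosphorylation, read in the RNA of microglia from Bhlhe40/41 double knockout (DKO) and wild-type (WT) mice. Members were the protein-coding genes whose symbol begins with Nduf, Sdh followed by a to d, Uqcr, Cox4 to Cox8, Atp5, mt-Nd, mt-Co, mt-Atp or mt-Cytb, or is Cyc1 or Cycs, and whose mean estimated read count over the 10 libraries was at least 10. Of 113 protein-coding genes with such a symbol, 105 reached this minimum, out of 53697 genes in the files. Of these, 92 lie on nuclear chromosomes and 13 on mitochondrial DNA, and all 105 passed the count filter of the gene test. Beside their symbols, members were chosen by this mean read count alone, taken over both genotypes, so this minimum did not use the genotype. The set of symbols was itself chosen with earlier results of these data known. The member nearest above the minimum was Ndufaf5, with 77.4 reads on average, and the genes nearest below it were Cox6b2 with 7.5 and Cox7a1 with 6.1.

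Oxidative phosphorylation takes place in the inner membrane of mitochondria. Complexes I and II pass electrons from NADH and succinate to ubiquinone, complex III passes them on to cytochrome c, and complex IV hands them to oxygen. Complexes I, III and IV pump protons, and complex V, the ATP synthase, uses the gradient to make ATP. Every complex except complex II mixes subunits made in the cytosol from nuclear genes with subunits translated inside the organelle from mitochondrial DNA, so 2 separate transcription systems supply it. Microglia are the resident macrophages of the brain, and their balance between oxidative phosphorylation and glycolysis is known to shift with activation.

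Microglia were sorted from the brains of female Bhlhe40-/-Bhlhe41-/- mice, which lack both transcription factors in every cell, and from female wild-type mice, which were C57BL/6J or Rosa26Stop-YFP. The paper states that all its mice were kept on a C57BL/6 background. Elsewhere it calls the WT animals littermates of the DKO animals. No animal was treated, and each genotype had 5 libraries, numbered 1 to 5 as biological replicates in the labels. Ages of 2 and 6 months or more are given for the animals of the study as a whole. Which wild-type strain or which age gave which library is not stated, so both may differ between libraries of 1 genotype and between the genotypes. The sort kept live CD45.2+ CD11b+ cells without Ly6C, Ly6G, MHCII or CD38, and the library kit did not mark the strand of the RNA.

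Estimated counts summed to between 22483044 and 26109107 per library. Levels are given as CPM, the counts scaled to a common library total with TMM factors. The genotypes were compared in a quasi-likelihood fit of edgeR with DKO set over WT, and p-values were adjusted by Benjamini and Hochberg over 13916 genes, with 0.05 as the threshold for a call. Of all genes tested, 862 were called (6.19%), of which 604 were called higher in DKO (4.34%) and 258 lower (1.85%), a split that became 560 higher and 466 lower with upper-quartile scaling. The biological coefficient of variation was 28.0%. Bhlhe40 had 1 to 8 reads in DKO libraries and 4 to 28 in WT libraries and was too low to test. Bhlhe41 kept 997 to 1356 reads in DKO libraries, against 754 to 1305 in WT libraries (log2 fold change 0.50, adjusted p = 0.0707), while its abundance-weighted transcript length was 1851 to 2719 bases in DKO libraries and 5878 to 6133 bases in WT libraries. The 10 microglia markers summed to 70052 to 87249 CPM in DKO libraries and 76166 to 85237 CPM in WT libraries, and the 6 neutrophil markers to at most 0.171 CPM in DKO libraries and 0.0395 CPM in WT libraries. Of the 10, P2ry12 was called lower (log2 fold change -0.50, adjusted p = 0.0301). The 6 astrocyte markers summed to 157 to 209 CPM in DKO libraries and 242 to 396 CPM in WT libraries, and nearly all of this was Slc1a3, a glutamate transporter (171 CPM in DKO, 304 CPM in WT on average), while Gfap, Aldoc and Slc1a2 had positive log2 fold changes that were not called. The 7 endothelial and mural markers summed to 11.8 to 18.8 CPM in DKO libraries and 41.5 to 64.4 CPM in WT libraries, a difference made by Pecam1 (5.08 CPM in DKO, 44.1 CPM in WT on average), with Flt1, Kdr and Pdgfrb not called and Cldn5 at most at 0.171 CPM. The 6 monocyte markers summed to 9.89 to 14.4 CPM in DKO libraries and 3.59 to 8.38 CPM in WT libraries, with Cd44 called higher and Ly6c2 at most at 0.17 CPM. Among 5 markers of border-associated macrophages, Pf4 was called higher (2.10 to 6.20 CPM in DKO, at most 0.376 CPM in WT), and Cd163 and Lyve1 were at 0 reads. Mrc1 overlapped between the genotypes and was not called (3.77 to 21.7 CPM in DKO, 3.95 to 15.2 CPM in WT, adjusted p = 0.667). The part of such cells in the results below was not tested. In sorted bulk RNA, less RNA per cell and fewer cells with a transcript cannot be told apart.

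Some WT libraries stood apart from the rest. WT 3 was more than 2-fold above all 4 other WT libraries in 320 of the tested genes, while that number was between 3 and 22 in the other WT libraries and between 1 and 56 in the DKO libraries. WT 1 and WT 5 were together below the other 8 libraries in 2127 genes (15.3%) and together above them in 1462 genes (10.5%). Fold changes without them are given for the members described for this split. Libraries numbered 4 and 5 also differed from those numbered 1 to 3 in both genotypes, and the labels do not say what a number stands for.

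To ask whether the supply of respiratory chain transcripts as a whole differed between the genotypes, the members were first summed per library. The 92 nuclear members summed to 7163, 7662, 7559, 8701 and 8877 CPM in DKO 1 to 5, against 7463, 7011, 6951, 8639 and 8552 CPM in WT 1 to 5. The genotypes overlapped over almost their whole range, with means of 7992 ± 753 CPM in DKO and 7723 ± 821 CPM in WT (SD, n = 5 each), while libraries 4 and 5 of both genotypes were above all others. The 13 mitochondrially encoded members summed to 9615, 10178, 13612, 10020 and 10436 CPM in DKO 1 to 5, against 14368, 9481, 8576, 10557 and 12771 CPM in WT 1 to 5. Their means were 10772 ± 1615 CPM in DKO and 11151 ± 2385 CPM in WT, and the high libraries were DKO 3, WT 1 and WT 5. Mitochondrial over nuclear sums gave a ratio of between 1.15 and 1.80 in DKO and between 1.22 and 1.93 in WT. No test was made on sums, because the genes were chosen with earlier results of these data known.

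**Figure D1:**
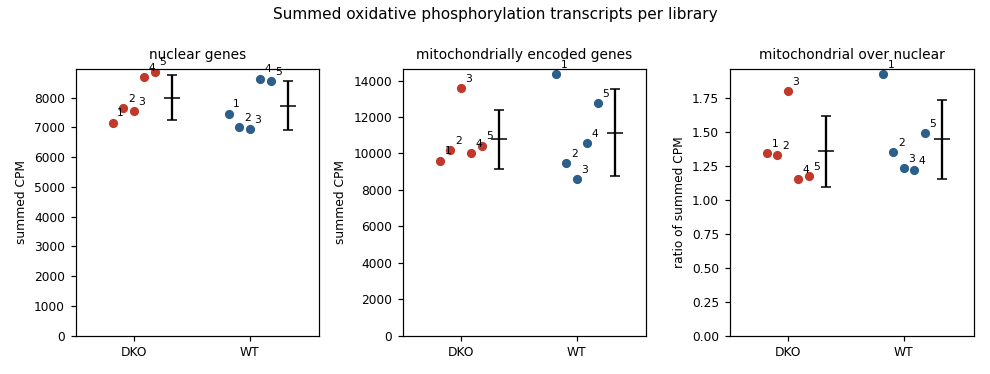
Summed CPM of the 92 nuclear members (left), of the 13 mitochondrially encoded members (middle) and the ratio of the mitochondrial to the nuclear sum (right), for 5 DKO and 5 WT libraries. Points are libraries with their replicate number, and the bar beside them is the mean with the SD. Nuclear sums reached 8552 to 8877 CPM in the libraries numbered 4 and 5 and 6951 to 7662 CPM in those numbered 1 to 3, in both genotypes, and the mitochondrial sum was highest in WT 1 at 14368 CPM.

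Gene by gene, 3 of the 92 nuclear members were called higher in DKO and none lower, against 4.34% and 1.85% of all genes, so the share of members called higher did not stand out from that of all genes. DESeq2 called 6 higher and 2 lower, against 7.72% and 4.02% of its genes, and limma voom 6 higher and 0 lower, against 6.24% of all genes higher. Without WT 1 and WT 5, 2 were called higher (Cox6a2 and Ndufa1), against 2.18% of all genes. An unadjusted p under 0.05 was reached by 14 nuclear members, against 23.3% of all genes, and 11 of these were higher, against 13.3% of all genes. In 7 of 92 nuclear members every DKO library was above every WT library, against 4.33% of all genes. In 3 of 92 every DKO library was below every WT library, against 3.29% of all genes. None of the 13 mitochondrially encoded members was called by edgeR, DESeq2 or limma voom, and 2 of them had an unadjusted edgeR p under 0.05. The median log2 fold change was 0.01 over nuclear members and 0.16 over mitochondrially encoded members, beside -0.01 over all genes. It was positive for 50 of 92 nuclear members and for 11 of 13 mitochondrially encoded members. Within the libraries numbered 1 to 3, the medians of the differences in mean log2 CPM were 0.04 (nuclear) and 0.24 (mitochondrially encoded), and within those numbered 4 and 5 they were -0.01 and -0.0023. Without DKO 3 the mitochondrially encoded median was -0.0066. The limma test on log2(TPM + 1) gave another picture, with 3 nuclear members higher and 42 lower, against 4.51% and 30.1% of all genes, and with the median of all genes itself at -0.26.

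**Figure D2:**
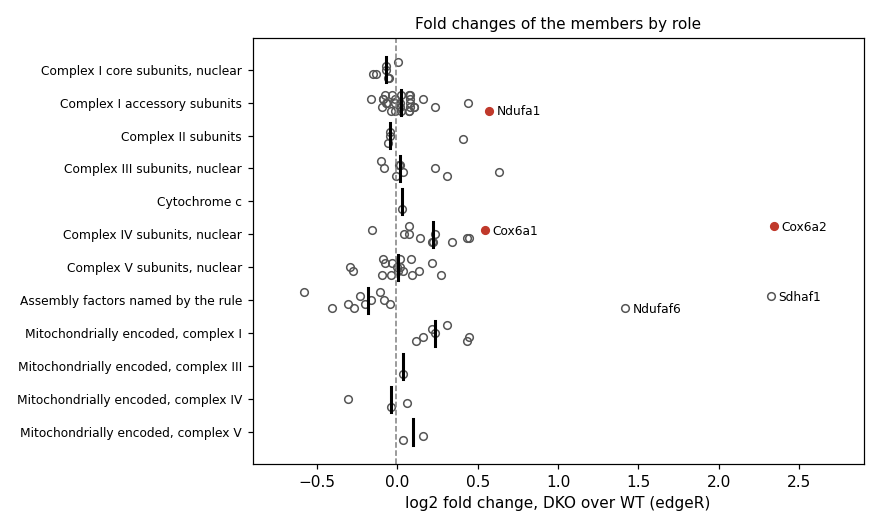
Log2 fold change, DKO over WT, of each of the 105 members by role. Filled points passed the adjusted threshold, black bars are group medians and the dashed line is the median of all 13916 genes. The members called are Cox6a2, Cox6a1 and Ndufa1, and the nuclear subunits of complex IV have a median of 0.22 with 12 of 13 above 0.

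Complex IV held 2 of the 3 members called. Cytochrome c oxidase takes its catalytic core from mitochondrial DNA and is surrounded by small nuclear subunits, several of which exist as tissue isoforms. Of its 13 nuclear members here, 12 had a positive log2 fold change, with a median of 0.22, and 2 were called higher. With upper-quartile factors 9 of 13 were positive, with library size alone 10, and on log2(TPM + 1) only 4, with a median of -0.14. Relative to the median of all genes under the same setting, 12 of 13 were above it with upper-quartile factors and with library size alone, and 9 on log2(TPM + 1). Their summed level was 1204 ± 117 CPM in DKO and 1025 ± 123 CPM in WT (SD, n = 5 each). The subunits have short transcripts, and among 1228 other protein-coding genes with effective lengths in the same range (230 to 776 bases) the median log2 fold change was -0.01 and 3.50% were called higher.

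Cox6a2, the isoform of subunit VIa typical of heart and skeletal muscle, had the largest fold change of all members. It was read at 16.2, 11.1, 8.48, 6.35 and 8.24 CPM in DKO 1 to 5, against 1.44, 2.63, 2.05, 2.05 and 1.77 CPM in WT 1 to 5. The lowest DKO library was above the highest WT library by more than the whole spread of the WT group. In reads, this was 156 to 380 in DKO libraries and 40 to 62 in WT libraries. The log2 fold change was 2.34 with an SE of 0.27, or 5.07-fold, with an adjusted p of 0.000434 by edgeR, and it was called in all 25 other settings, with log2 fold changes between 1.79 and 2.47. The gene lies on chromosome 7 (GRCm38, 128205435 to 128206387, minus strand) wholly inside Itgad, an integrin gene on the opposite strand with which it shares 40 of its 650 31-base words. Without strand, reads from both cannot be told apart in the overlap, but Itgad itself was given 0 to 9 reads in DKO libraries and 4 to 14 in WT libraries.

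Cox6a1, the isoform of the same subunit in most tissues, was also called higher. Its levels were 121, 147, 119, 154 and 159 CPM in DKO 1 to 5, against 94.0, 85.9, 86.7, 115 and 98.5 CPM in WT 1 to 5. The groups did not overlap, but the lowest DKO library, DKO 3, lay only just above WT 4. The log2 fold change was 0.55 with an SE of 0.12 (adjusted p = 0.0195, edgeR). The call was lost without DKO 2 (adjusted p = 0.0576), on leaving out DKO 5 (0.0518), on leaving out both WT 1 and WT 5 (0.0758) and on log2(TPM + 1) (0.135, the highest of 25 settings, whose lowest was 0.00204), with a log2 fold change that stayed positive. Per kilobase of effective length, Cox6a1 averaged 505 CPM in DKO and 342 CPM in WT, whereas Cox6a2 averaged 32.3 ± 12.3 CPM per kilobase in DKO and 6.46 ± 1.42 CPM per kilobase in WT (SD, n = 5 each). The muscle isoform was the minor one in both genotypes. Cox6a1 lies on chromosome 5 (115345642 to 115348981, minus strand).

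**Figure D3:**
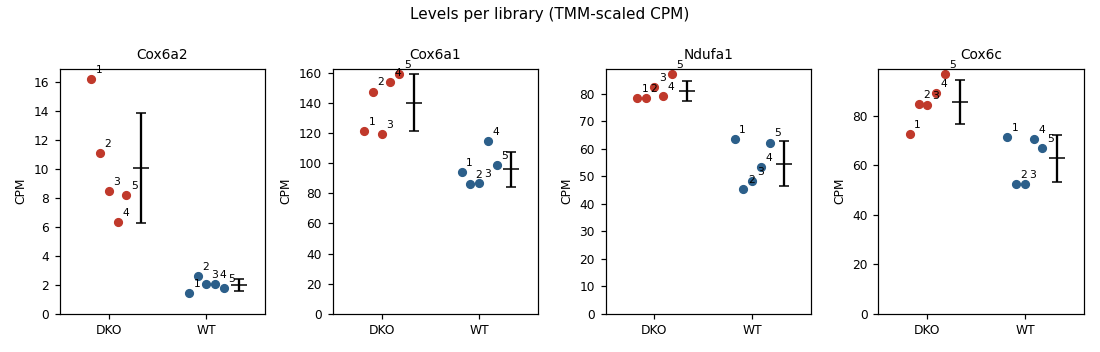
TMM-scaled CPM of Cox6a2, Cox6a1, Ndufa1 and Cox6c in 5 DKO and 5 WT libraries. Points are libraries with their replicate number, and the bar beside them is the mean with the SD. Every DKO library lies above every WT library in all 4 panels, by the widest ratio in Cox6a2 (6.35 CPM in the lowest DKO library and 2.63 CPM in the highest WT library).

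Cox6c and Cox7c, small subunits of complex IV, separated the genotypes without being called. Cox6c was at 72.7, 84.7, 84.2, 89.1 and 96.7 CPM in DKO 1 to 5, against 71.4, 52.3, 52.2, 70.6 and 66.9 CPM in WT 1 to 5 (log2 fold change 0.45, SE 0.12, adjusted p = 0.0512). DKO 1 and WT 1 almost touched, and the gene was called in 5 of 25 other settings. It overlaps Vps13b on the opposite strand by 5344 bases. Cox7c was at 49.4 to 64.6 CPM in DKO and 36.1 to 49.4 CPM in WT (log2 fold change 0.34, adjusted p = 0.102). Here too DKO 1 and WT 1 almost touched, at 49.40 and 49.37 CPM. Cox6b1, which faces cytochrome c, had a log2 fold change of 0.22 (95% interval 0.01 to 0.44, adjusted p = 0.194).

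The most abundant nuclear subunit of complex IV per length was Cox4i1, the isoform found in most tissues, with 947 ± 118 CPM per kilobase in DKO and 824 ± 139 CPM per kilobase in WT (SD, n = 5 each). Its log2 fold change was 0.22, with a 95% interval that included 0 and an adjusted p of 0.352. Its hypoxia- and lung-associated partner Cox4i2 had 1 read in all 10 libraries together. Among the other pairs of isoforms, Cox8a had 463 CPM per kilobase in DKO and 424 in WT, and Cox8b had 0 reads in every library. Cox7a2 had 165 CPM per kilobase in DKO and 158 in WT, against at most 14 reads of its muscle isoform Cox7a1 in any library. Ndufa4, first described in complex I and now counted with complex IV, had a log2 fold change of 0.07 (adjusted p = 0.721), and its hypoxia-induced relative Ndufa4l2 had 0 reads in DKO libraries and at most 2 in WT libraries. Of the isoforms typical of other tissues, only Cox6a2 passed the read minimum. Cox7a2l was the only nuclear complex IV member with a negative log2 fold change (-0.16, adjusted p = 0.398).

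Cox5a, a matrix-side subunit, was split among the WT libraries. It was at 53.6, 53.0, 49.6, 54.7 and 58.5 CPM in DKO 1 to 5, against 27.8, 44.8, 46.7, 55.6 and 24.7 CPM in WT 1 to 5. WT 1 and WT 5 were at about the level of each other and far below the remaining 8 libraries, and the log2 fold change of 0.43 was not called (adjusted p = 0.222). Without these 2 libraries it was 0.14 (adjusted p = 0.592). The opposite-strand transcript Gm26631 overlaps Cox5a by 1140 bases and had 17 to 55 reads in DKO libraries and 19 to 66 in WT libraries.

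Complex I is the largest complex of the chain, with core subunits that carry the flavin and iron-sulphur clusters and accessory subunits around them. Of its 7 nuclear core subunits, none was called by edgeR, DESeq2 or limma voom or had an unadjusted edgeR p under 0.05, and 6 had a slightly negative log2 fold change (median -0.07). Ndufs7, which holds the last cluster before ubiquinone, was the most abundant of these per length with 79.0 to 101 CPM in DKO and 82.4 to 119 CPM in WT. Without WT 1 and WT 5 only 4 of the 7 core subunits were negative.

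Among the 29 accessory subunits of complex I, 17 had a positive log2 fold change, the median was 0.02, and only Ndufa1 was called. Ndufa1 is a small membrane protein encoded on the X chromosome (37187588 to 37191163, minus strand) that is needed to build the membrane arm. It was at 78.5, 78.4, 82.5, 79.3 and 87.2 CPM in DKO 1 to 5, against 63.7, 45.5, 48.2, 53.4 and 62.3 CPM in WT 1 to 5. All DKO libraries were within a narrow band above WT 1, the highest WT library. The log2 fold change was 0.57 with an SE of 0.11 (adjusted p = 0.0108, edgeR), and the call was lost with upper-quartile factors (0.0506) and on log2(TPM + 1) (0.224, the highest of 25 settings, whose lowest was 0.000429), while it held without any single library. Per length, Ndufa1 was the most abundant accessory subunit in DKO, with 487 ± 25.0 CPM per kilobase, beside 383 for Ndufb8. In WT, Ndufb8 was the most abundant, with 361 CPM per kilobase, beside 333 ± 55.0 for Ndufa1 (SD, n = 5 each). Next in p was Ndufb9, an accessory subunit of the membrane arm (97.5 to 134 CPM in DKO, 71.5 to 104 CPM in WT, log2 fold change 0.44, adjusted p = 0.0696), which passed the threshold with a term for the numbers 1 to 3 and 4 to 5. Ndufa10, an accessory subunit related to nucleoside kinases, was low in WT 1 and WT 5 (36.4 and 42.0 CPM), while DKO libraries held 54.0 to 75.9 CPM and the other WT libraries 60.3 to 79.0 CPM. Its log2 fold change was 0.23 (adjusted p = 0.506), and -0.04 without WT 1 and WT 5 (adjusted p = 0.927).

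The windows before the starts of both genes called with moderate changes are shown to let their promoters be read beside these values. They come from RefSeq on GRCm38.p6, run over the 250 bases before an annotated start, 5′ to 3′ on the minus strand, and have in capitals the matches to 4 motifs known from promoters of respiratory genes or, for the first, from the DNA binding of BHLHE40 and BHLHE41. The motifs searched on both strands were the E-box CACGTG, the NRF1 core GCATGCGC, the ETS core CCGGAAG bound by GABP, and the YY1 core AAGATGGCG.
Cox6a1, chr5:115348959-115349208: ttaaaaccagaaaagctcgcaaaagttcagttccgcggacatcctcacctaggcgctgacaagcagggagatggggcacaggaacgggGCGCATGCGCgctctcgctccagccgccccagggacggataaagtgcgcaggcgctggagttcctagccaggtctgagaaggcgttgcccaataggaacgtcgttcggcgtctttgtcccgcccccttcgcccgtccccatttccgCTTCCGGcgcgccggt
Ndufa1, chrX:37191239-37191488: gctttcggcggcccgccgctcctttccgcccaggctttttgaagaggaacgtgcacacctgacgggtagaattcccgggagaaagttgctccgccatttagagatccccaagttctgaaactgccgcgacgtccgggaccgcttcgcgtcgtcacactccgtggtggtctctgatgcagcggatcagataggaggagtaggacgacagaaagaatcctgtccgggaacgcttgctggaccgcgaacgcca

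The Cox6a1 window held the NRF1 core on both strands in overlap and, close to the start, the ETS core, and the Ndufa1 window held none of the 4. Of 92 nuclear members, 77 had a window in the RefSeq table. Taking the first window listed for each gene, the ETS core was in 15 of 77 (19.5%), against 7.05% of 27025 windows of all genes, and the NRF1 core was in 10 of 77 (13%), against 2.32% of all windows. The E-box was in 6 of 77 (7.79%), against 6.05% of all windows, namely those of Atp5f1, Atp5g1, Atp5g3, Atp5l, Ndufa7 and Ndufv1. None of these 6 was called by edgeR, DESeq2 or limma voom, while limma on log2(TPM + 1) called Atp5f1, Atp5g3 and Ndufv1 lower. The YY1 core was in 0 of 77 and in 0.607% of all windows.

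Complex II, succinate dehydrogenase, is made entirely from nuclear genes and also serves the citric acid cycle. Sdhb, its iron-sulphur subunit, was at 164, 172, 165, 208 and 198 CPM in DKO 1 to 5, against 122, 129, 114, 171 and 147 CPM in WT 1 to 5. Only WT 4 reached into the DKO range, and within each set of numbers all DKO libraries were above all WT libraries. The log2 fold change was 0.41 with an SE of 0.12 (adjusted p = 0.0720), and it passed the threshold in 3 of 25 other settings, among them a term for the sets of numbers (0.00449, the lowest of a range that ended at 0.742) and the fit without WT 4 (0.0327). The flavin subunit Sdha and the membrane anchors Sdhc and Sdhd had log2 fold changes between -0.06 and -0.05. No member of complex II was called by edgeR, DESeq2 or limma voom.

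Assembly factors do not remain in the finished complexes. Of the 12 captured by the rule, 10 had a negative log2 fold change (median -0.19), none was called by edgeR, and 2 had an unadjusted p under 0.05 on the high side and 3 on the low side. DESeq2 called 2 higher (Sdhaf1 and Ndufaf6) and 2 lower, and limma voom called Sdhaf1 and Ndufaf6 higher. The low ones were Ndufaf5, Sdhaf3 and Sdhaf4. In these 3 of 12 every DKO library was below every WT library, against 3.29% of all genes. They were the only such genes among all 92 nuclear members. Ndufaf5, which modifies the core subunit Ndufs7, was at 3.24, 2.00, 2.40, 2.32 and 2.5 CPM in DKO 1 to 5, against 4.64, 3.26, 3.47, 3.41 and 3.91 CPM in WT 1 to 5. DKO 1 and WT 2 differed by less than the spread within either group. Its log2 fold change was -0.58 with an SE of 0.18 (adjusted p = 0.0825), and DESeq2 called it lower (0.0268), as did limma on log2(TPM + 1). Sdhaf4, which binds the flavin-loaded Sdha before assembly, was the most abundant of the group per length, with 17.4 to 19.5 CPM in DKO and 19.7 to 27.8 CPM in WT (log2 fold change -0.30, adjusted p = 0.140). Sdhaf3, which helps to mature Sdhb, had 3.99 to 5.01 CPM in DKO and 5.29 to 6.69 CPM in WT (log2 fold change -0.41, adjusted p = 0.0970), and DESeq2 called it lower too.

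The exceptions were Sdhaf1 and Ndufaf6, whose log2 fold changes were positive in all 25 other settings and whose WT libraries were split. Sdhaf1, which inserts iron-sulphur clusters into Sdhb, was at 14.4, 16.8, 6.85, 7.82 and 16.6 CPM in DKO 1 to 5, against 0.900, 1.48, 8.48, 1.07 and 0.526 CPM in WT 1 to 5. WT 3 was inside the DKO range and the other 4 WT libraries were far below it. The log2 fold change was 2.32 with an SE of 0.68 (adjusted p = 0.0660), and without WT 3 it was 3.65 (adjusted p = 0.000151, the lowest of 25 other settings). Without WT 1 and WT 5 it was 1.75 (adjusted p = 0.185, the highest). Sdhaf1 overlaps E130208F15Rik on the opposite strand by 1733 bases and shares 69.2% of its 31-base words with it, and that gene was listed at 0 reads in every library. Ndufaf6, a complex I assembly factor, was at 6.74, 5.52, 6.51, 7.37 and 6.16 CPM in DKO 1 to 5, against 1.01, 2.29, 5.37, 2.83 and 0.601 CPM in WT 1 to 5. Every DKO library was above every WT library, with WT 3 close to them and WT 1 and WT 5 lowest. The log2 fold change was 1.42 (adjusted p = 0.0907, and 0.00705 without WT 3), and 0.88 without WT 1 and WT 5 (adjusted p = 0.124).

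Complex III had no member called by edgeR, DESeq2 or limma voom among its 9 nuclear genes and none with an unadjusted edgeR p under 0.05, with a median log2 fold change of 0.01. Uqcr11, a small subunit and the most abundant per length, had 498 ± 75.1 CPM per kilobase in DKO and 424 ± 74.4 CPM per kilobase in WT (SD, n = 5 each). Its log2 fold change was 0.23, with an adjusted p of 0.346. The widest spread was that of Uqcrfs1, the Rieske iron-sulphur protein. It was at 73.5, 77.5, 94.5, 91.5 and 97.0 CPM in DKO 1 to 5, against 20.3, 78.9, 76.9, 87.5 and 16.9 CPM in WT 1 to 5. WT 1 and WT 5 held less than any other library by a wide margin, and WT 2, 3 and 4 were within the DKO range, and the log2 fold change of 0.63 had a 95% interval of -0.28 to 1.54 (adjusted p = 0.385). Without WT 1 and WT 5 it was 0.10 (adjusted p = 0.757). Cyc1, cytochrome c1, showed the same 2 libraries low, with 97.3 to 126 CPM in DKO and 51.9, 102, 91.3, 128 and 67.6 CPM in WT 1 to 5, and its log2 fold change of 0.31 was 0.03 without them. Uqcrh, the hinge protein beside cytochrome c1, was instead highest in WT 1 and WT 5, at 61.6 and 71.5 CPM, with 43.0 to 59.1 CPM in DKO libraries and 38.8 to 53.3 CPM in the other WT libraries, and its log2 fold change of -0.08 turned to 0.18 without them, neither called. The soluble carrier cytochrome c, encoded by Cycs, was at 59.4 to 70.5 CPM in DKO and 59.6 to 71.3 CPM in WT (log2 fold change 0.03, 95% interval -0.16 to 0.22), and it shares 26.2% of its 31-base words with Gm10053, which was given 878 reads on average.

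**Figure D4:**
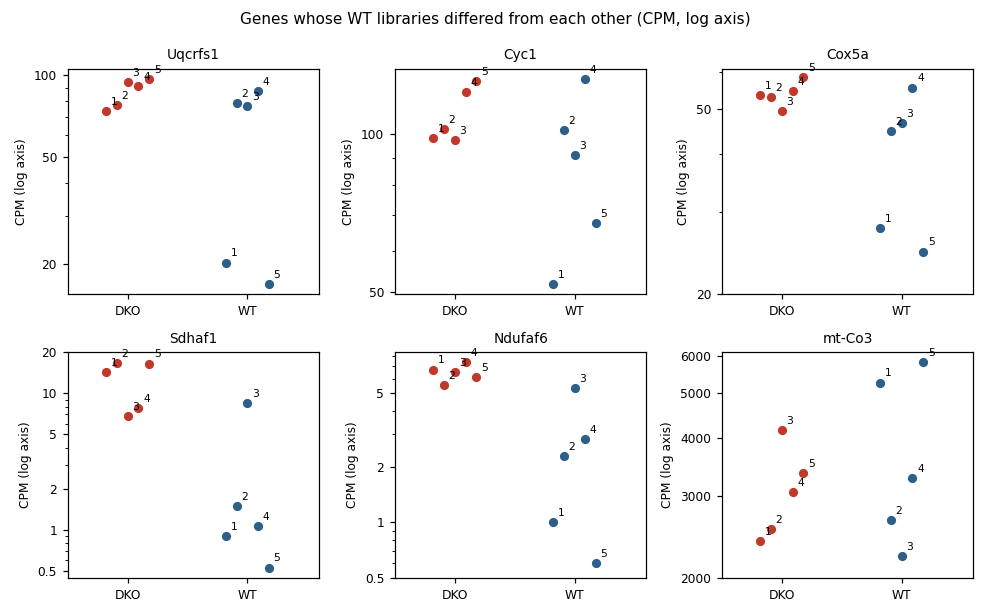
CPM on log axes of 6 members whose WT libraries differed from each other, for 5 DKO and 5 WT libraries numbered by replicate. WT 1 and WT 5 lie below the other 8 libraries in Uqcrfs1 (20.3 and 16.9 CPM), Cyc1, Cox5a, Sdhaf1 and Ndufaf6 and above them in mt-Co3, and WT 3 lies with or next to the DKO libraries in Sdhaf1 and Ndufaf6.

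Over all members, WT 1 and WT 5 were together below the other 8 libraries in 11 of 105 (10.5%) and together above them in 9 (8.57%), compared with 15.3% and 10.5% of all genes. What WT 1 and WT 5 have in common is not in the labels.

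Complex V had no member called by edgeR, DESeq2 or limma voom among its 17 nuclear genes and 1 with an unadjusted edgeR p under 0.05 (higher), and its median log2 fold change was 0.0038. The catalytic beta subunit Atp5b was its most abundant member per length, with 623 to 772 CPM in DKO and 618 to 748 CPM in WT (log2 fold change 0.03, SE 0.10, 95% interval -0.18 to 0.25). Atp5j, coupling factor 6 of the stalk, was at 89.9, 104, 89.4, 91.1 and 100 CPM in DKO 1 to 5, against 78.6, 67.2, 84.6, 85.5 and 77.9 CPM in WT 1 to 5. Its groups did not overlap, by a gap smaller than the spread in either, and its log2 fold change of 0.27 was not called (adjusted p = 0.102). The 3 genes for the identical mature ring subunit c had 241 (Atp5g1), 194 (Atp5g2) and 185 (Atp5g3) CPM per kilobase in DKO and 216 (Atp5g1), 243 (Atp5g2) and 198 (Atp5g3) CPM per kilobase in WT, with adjusted p between 0.425 and 0.799. Atp5g2 is uncertain, because it shares 37.5% of its 31-base words with the pseudogene Gm10175, to which 868 reads were given on average.

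Mitochondrial DNA is transcribed from both strands into long precursors that are cut into single messengers, so the levels of its genes reflect processing and decay as well as transcription. Its 13 protein-coding genes took 0.943% to 1.41% of all counts in DKO libraries and 0.873% to 1.54% in WT libraries. The 7 subunits of complex I all had a positive log2 fold change, with a median of 0.23, but none was called. On log2(TPM + 1) only 2 of these 7 were positive while 6 were above the median of all genes, and with the reads of nuclear copies added 6 of 7 were positive. mt-Nd5 was at 386, 383, 304, 305 and 296 CPM in DKO 1 to 5, against 233, 307, 273, 292 and 135 CPM in WT 1 to 5. The DKO libraries overlapped with WT 2, and WT 5 and WT 1 were lowest (log2 fold change 0.43, 95% interval 0.01 to 0.86, adjusted p = 0.208, and 0.20 without WT 1 and WT 5, adjusted p = 0.429). mt-Nd6, the only one of the 13 encoded on the other strand, was at 66.9, 74.7, 47.6, 42.4 and 38.7 CPM in DKO 1 to 5, against 34.7, 46.1, 49.1, 47.4 and 21.0 CPM in WT 1 to 5. DKO 1 and DKO 2 were high and WT 5 was low (log2 fold change 0.45, adjusted p = 0.308, and 0.18 without WT 1 and WT 5, adjusted p = 0.731). Since mt-Nd5 and mt-Nd6 overlap by 14 bases on opposite strands and the kit did not mark strand, reads there cannot be assigned. As both strands are transcribed into long precursors, reads along the rest of mt-Nd6 may also come from the opposite strand. Their share was not tested. mt-Nd4l was at 27.2 to 37.8 CPM in DKO and 20.1 to 30.2 CPM in WT (log2 fold change 0.31, unadjusted p = 0.0382, adjusted p = 0.188).

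The other mitochondrially encoded complex I genes had log2 fold changes of 0.12 (mt-Nd1), 0.16 (mt-Nd2), 0.23 (mt-Nd3) and 0.21 (mt-Nd4), with adjusted p between 0.348 and 0.688. Without WT 1 and WT 5, that of mt-Nd3 was 0.71 (adjusted p = 0.150) and that of mt-Nd1 was 0.29 (adjusted p = 0.390). The most abundant of the 7 per length was mt-Nd1, with 940 ± 177 CPM per kilobase in DKO and 887 ± 190 CPM per kilobase in WT (SD, n = 5 each). mt-Cytb, the single mitochondrially encoded subunit of complex III, had a log2 fold change of 0.03 with an SE of 0.12 (95% interval -0.23 to 0.30), and mt-Atp6 and mt-Atp8, which overlap by 43 bases, had 0.04 and 0.16, with adjusted p of 0.921 and 0.708.

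In the catalytic core of complex IV, mt-Co1, mt-Co2 and mt-Co3 had log2 fold changes of -0.04, 0.06 and -0.31. mt-Co3 was the most abundant member of all, with 3310 ± 770 CPM per kilobase in DKO and 4206 ± 1861 CPM per kilobase in WT (SD, n = 5 each). In CPM it was at 2397, 2545, 4154, 3063 and 3358 in DKO 1 to 5, against 5255, 2663, 2223, 3276 and 5815 in WT 1 to 5. WT 1 and WT 5 were above all other libraries and the rest of the WT libraries were within or just below the DKO range, with an adjusted p of 0.511. mt-Co3 made up 24.9% to 32.2% of the mitochondrially encoded sum in DKO and 25.9% to 45.5% in WT, the highest share being that of WT 5. Without mt-Co3 the sums were 6957 to 9458 CPM in DKO and 6353 to 9113 CPM in WT. Of these 3 genes of complex IV, 1 had a positive log2 fold change, compared with 12 of its 13 nuclear members. Without WT 1 and WT 5 all 3 were positive, at 0.13 (mt-Co1), 0.22 (mt-Co2) and 0.19 (mt-Co3), again beside 12 of 13 nuclear members, and none was called.

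**Figure D5:**
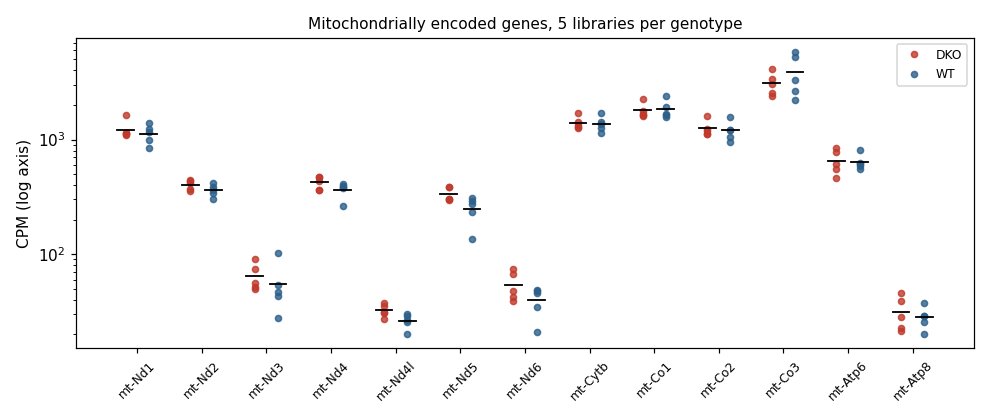
CPM on a log axis of the 13 mitochondrially encoded genes in 5 DKO and 5 WT libraries, with the group means as black bars. The groups overlap for every gene, and the widest WT spread among the abundant genes is that of mt-Co3, between 2223 and 5815 CPM.

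Copies of mitochondrial DNA in nuclear chromosomes limit these levels. Of the 31-base words of mt-Atp6, 99.5% are also in the nuclear copy Gm10925, which was given 20784 reads on average, and mt-Co1 shares 29.6% of its words with Gm29216, which was given 19471. mt-Co3 shares 99.9% with Gm28437, with 3823 reads, and mt-Nd3 shares 98.1% with Gm28438, with 533. mt-Co2 shares 47.1% with Gm13341, which had about 1 read on average, and 99.5% with Gm28661, which was listed at 0 reads, so nothing was added to it. How such reads were divided between gene and copy is set by the quantification. When the reads of the 4 copies Gm10925, Gm29216, Gm28437 and Gm28438 were added to their genes, again 0 of 13 members were called and their median log2 fold change was 0.12.

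Libraries 4 and 5 were above libraries 1 to 3 in the nuclear sum of both genotypes, while the mitochondrially encoded sum was not ordered in this way. It averaged 10228 CPM in DKO 4 and 5 and 11135 CPM in DKO 1 to 3, but 11664 CPM in WT 4 and 5 and 10808 CPM in WT 1 to 3. On the scale of mean log2 CPM over both genotypes, 83 of 92 nuclear members (90.2%) were higher in libraries 4 and 5 than in 1 to 3, with a median difference of 0.24, compared with 45.5% of all genes and a median of -0.03. Of 13 mitochondrially encoded members, 3 were higher in libraries 4 and 5, and the median difference was -0.20. In 32 of 92 nuclear members every library numbered 4 or 5 was above every library numbered 1 to 3, against 3.46% of all genes. In none was the order the other way round, against 1.94% of all genes. The largest of these differences was that of Ndufb8, an accessory subunit of complex I, with 180 and 177 CPM in DKO 4 and 5 and 164 and 186 CPM in WT 4 and 5, beside 128 to 143 CPM in DKO 1 to 3 and 108 to 140 CPM in WT 1 to 3. This contrast was noticed in the data and was not tested, and what the sets of numbers share cannot be told from the labels. Since each set held both genotypes, it bears on the comparison of DKO with WT through its spread: with a term for the sets, 7 nuclear members were called higher, the 3 above with Cox6c, Ndufb9, Sdhaf1 and Sdhb, when 6.15% of all genes were called higher.

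Genes that serve oxidative phosphorylation without matching the symbols of the rule were read from 5 lists. The counts in each list stand beside the shares of all genes. EdgeR called 4.34% of all genes higher and 1.85% lower, and 23.3% had an unadjusted p under 0.05. DESeq2 called 7.72% higher and 4.02% lower, and limma voom called 6.24% higher. Of 36 further assembly factors tested, 0 were called by edgeR, DESeq2 or limma voom, 3 had an unadjusted edgeR p under 0.05 (all lower), and the median log2 fold change was -0.03. The most abundant of them per length was Higd2a, a factor for complex IV (log2 fold change -0.09, adjusted p = 0.656). Of 24 genes for the copying, transcription and processing of mitochondrial DNA, 1 was called higher and 0 lower by edgeR (6 had an unadjusted p under 0.05, 4 of them lower, and DESeq2 also called Tefm lower), and 17 had a negative log2 fold change (median -0.14). The gene called was Lrpprc, whose protein binds mitochondrial messengers and keeps them stable. It was at 73.3 to 112 CPM in DKO and 10.9 to 67.0 CPM in WT, where WT 3 alone reached 67.0 CPM and the other 4 stayed at or below 16.5 CPM. Its log2 fold change was 1.96 with an SE of 0.46 (adjusted p = 0.0303), and the call was lost on leaving out DKO 1, DKO 2, DKO 5, WT 1, WT 2, WT 4 or WT 5, with adjusted p between 0.0600 and 0.0758, without WT 1 and WT 5 together (0.113) and in robust edgeR (0.0531). The pattern of its WT libraries was like that of Sdhaf1, and the messengers it is known to bind had no called change.

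Of 8 nuclear regulators of respiratory genes tested, 0 were called by edgeR, DESeq2 or limma voom and 1 had an unadjusted edgeR p under 0.05 (higher), and Gabpb1, part of the ETS factor GABP, had a log2 fold change of -0.23 (adjusted p = 0.301). Of 16 enzymes of the citric acid cycle, 0 were called by edgeR, while DESeq2 and limma voom called Suclg2 lower, the only one with an unadjusted edgeR p under 0.05, and Mdh2, malate dehydrogenase, had a log2 fold change of 0.10 (adjusted p = 0.544). Of 14 carriers and proteins acting on the membrane potential, 0 were called by edgeR or limma voom, 2 had an unadjusted edgeR p under 0.05 (both lower) and DESeq2 called Mpc1 lower, and Slc25a5, the ADP/ATP carrier, had a log2 fold change of -0.03 (adjusted p = 0.908). Nnt, the proton-driven transhydrogenase in which C57BL/6J mice are known to carry a deletion, was counted under 2 gene IDs. The first had 11.4 to 16.6 CPM in DKO and 11.4 to 37.0 CPM in WT (adjusted p = 0.527), and the second 27.3 to 34.1 CPM in DKO and 31.5 to 70.9 CPM in WT (adjusted p = 0.131).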

How the data were processed

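RNA of sorted microglia was sequenced by the authors in 5 DKO and 5 WT libraries. The submitters' processing notes name cutadapt 2.6, FastQC 0.11.8, STAR 2.5.3a and the build mm10, while the program behind the gene-level values is not named in any source used here. The deposited files hold an unnormalized estimated count for each gene, and a TPM, a length and an effective length made by the authors' tool. Whole-number roundings of the estimated counts entered edgeR 4.0.16 (R 4.3.3) after filterByExpr with a minimum count of 10 and TMM scaling, and an SE was taken as the log2 fold change divided by the square root of F. Totals of 22483044 to 26109107 counts set the precision.

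The members, lists and alternatives were chosen with earlier results of these data known. Named genes were the mitochondrially encoded and called members, in each role the most abundant member and that with the smallest p, isoform pairs, genes beside the read minimum, and in each list the called genes or the most abundant. For 1 gene named by this rule no values are reported here. Other genes were named after their values were seen (Uqcrfs1, Cyc1, Uqcrh, Cox5a, Cox6c, Cox7c, Ndufb8, Ndufb9, Ndufa10, Ndufaf6, Sdhaf3, Suclg2, Tefm, Mpc1, the uncalled cell type markers and the genes whose windows held the E-box). Coordinates are from GENCODE M21 (GRCm38), and all 105 members matched it by unversioned ID. Shared sequence was counted as 31-base words of transcripts. Alternatives were RLE, upper-quartile or no factors, DESeq2 1.42.0, limma 3.58.1 voom, robust edgeR, limma on log2(TPM + 1), other count filters, effective length as an offset, mitochondrial counts left out of the totals, a replicate block, a term for the sets of numbers, WT 1 and WT 5 or each library left out, and, added after seeing the data, the reads of nuclear copies added to their genes.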

Additional observations from a re-analysis of the deposited data

Results flagged for a closer look

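In 92 groups of 5 libraries, formed by the named genes and the sums in each genotype, 9 had a library whose gap to the nearest other was over 0.71 of the group's range, which chance gives in about 1 of 20 groups. DKO 3 was such a library in mt-Nd1 (1621 CPM, the other DKO libraries 1091 to 1145), mt-Co1 (2251, others 1618 to 1790), mt-Co2 (1594, others 1120 to 1234) and the mitochondrially encoded sum (13612, others 9615 to 10436 CPM). WT 1 was apart in mt-Atp6 (812 CPM, the other WT libraries 548 to 623) and WT 5 in mt-Nd4 (265 CPM, others 375 to 408). WT 3 was apart in Sdhaf1 (8.48 CPM, others 0.526 to 1.48) and in Lrpprc (67.0 CPM, others 10.9 to 16.5). WT 5 was apart in the first ID of Nnt (37.0 CPM, others 11.4 to 15.4). These flags share libraries and are not independent of each other.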

How the results depend on the processing

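The number of nuclear members called higher (3) was 6 in DESeq2, 6 in limma voom, 5 with the replicate block, 7 with the term for the sets of numbers and 2 to 5 on leaving out each library, and the number called lower (0) was 2 in DESeq2 and 42 on log2(TPM + 1). No mitochondrially encoded member was called in any of 25 settings. Over all genes, 604 were called higher, and 1071 in DESeq2, 366 with the replicate block, 314 without WT 1 and WT 5 and 279 to 1174 on leaving out each library. The 258 called lower were 466 under upper-quartile scaling, 447 scaled by library size only, 558 in DESeq2, 4187 on log2(TPM + 1), 575 with the term for the sets, 135 without WT 1 and WT 5 and 119 to 444 on leaving out each library. Median log2 fold changes on log2(TPM + 1) were -0.33 (nuclear), -0.25 (mitochondrially encoded) and -0.26 (all genes), and that of all genes was -0.11 under upper-quartile scaling and -0.078 by library size only. On that TPM scale 4 named genes turned their sign and were called, Atp5b (-0.32), Cycs (-0.31), Ndufa4 (-0.32) and Mdh2 (-0.25). The cause of these shifts was not tested.

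Whether equal replicate numbers mark pairs is not in the labels and was not tested. The correlations of same-numbered deviations from the group means were -0.12, 0.09, -0.29, 0.23 and 0.12, and only the libraries numbered 4 correlated best with their own number. The replicate block added the calls of Ndufb9 and Sdhb and lost none. Low members such as Ndufaf5 carry few reads, and the mitochondrially encoded levels depend on reads shared with nuclear copies.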
